A study of Mus musculus with 10 samples.

Results

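The genes described here are 10 named enzymes of glycolysis and lactate production: Hk1, Hk2, Pfkl, Pfkp, Aldoa, Pgk1, Pgam1, Pkm, Ldha and Ldhb. They were taken by name, with earlier results of these data known. All 10 were found in each of the tables used, 10 of 27998 genes in the E14Tg2a table and 10 of 32285 in the R1 table. Glycolysis turns glucose into pyruvate in the cytosol, and lactate dehydrogenase turns pyruvate into lactate. Naive mouse embryonic stem cells (ESC) are known to use both glycolysis and respiration, and cells primed for differentiation are known to lean on glycolysis. Several of these genes are also textbook targets of the hypoxia inducible factor HIF1 and of Myc.

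mRNA molecules were counted as unique molecular identifiers (UMIs) in single cells of the mouse ESC lines E14Tg2a and R1, cultured along the path to primordial germ cell-like cells (PGCLC). E14Tg2a cells were wild type. They were kept as naive ESC in N2B27 medium with LIF and the inhibitors PD0325901 and CHIR99021 (2i ESC, 227 cells) or in serum with LIF (S+L ESC, 309 cells). They were turned into epiblast-like cells with Activin A, bFGF and serum replacement for 1, 2 or 3 days (d1, d2 and d3 EpiLC, with 280, 289 and 399 cells), or into epiblast stem cells (EpiSC, 373 cells) by longer culture in Activin A and bFGF. Embryoid bodies (EB) grown from EpiLC in GK15 medium with BMP4, SCF, LIF and EGF were taken at day 2 (537 cells) and day 4 (368 cells). At day 4, EB of the parental R1 line (R1 WT, 1416 cells) were set beside EB of an R1-derived line, Mll3/4 dCD, in which the histone methyltransferases MLL3 and MLL4 are catalytic mutants, present but without enzyme activity (dCD, 1699 cells).

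Each condition was 1 library, so no difference between conditions was tested, and culture condition, genotype and library cannot be told apart. Levels are UMIs per 1000000 UMIs of a group (CPM), each followed by an exact 95% Poisson interval, and ratios of CPM carry an exact conditional 95% interval. These intervals cover counting error only. A gene was called higher or lower where its ratio was at least 1.5 or at most the inverse of that, among genes with at least 100 UMIs in the groups compared. The library totals ran from 8757170 to 14649279 UMIs for E14Tg2a, and were 20586629 for R1 WT and 22887974 for dCD. Because 3′ ends are counted, transcript length was not corrected for and isoforms of Pkm were not separated.

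The libraries showed the markers of their labels. The summed CPM of 6 naive pluripotency markers was 1527 in 2i ESC and 1471 in S+L ESC, against 43.4 to 274.6 in the EpiLC libraries and 57.1 in EpiSC. Epiblast markers summed to 80.5 CPM in 2i ESC and 60.1 in S+L ESC, against 687.7 to 1261 in EpiLC and 763.6 in EpiSC. Cells that the study listed as PGCLC, 91 in d2 EB and 44 in d4 EB, held 455.1 and 406.8 CPM of 6 PGC markers, against 43.2 and 51.7 CPM in the other cells of the same libraries. The study named them PGCLC by high PGC marker expression, with Prdm1, Prdm14, Tfap2c and Dppa3 among the markers. That contrast therefore follows from how the cells were listed. In the R1 libraries the genotype could not be read from these counts, since both mutant proteins are still made: Kmt2c, the gene for MLL3, was at 47.5 CPM in R1 WT and 53.8 in dCD, and Kmt2d, the gene for MLL4, at 29.4 and 29.1. Only 8 cell barcodes occurred in more than 1 E14Tg2a library, and 0 were shared by the R1 libraries.

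The promoter windows of 4 members are printed because these genes mark the patterns that follow: Ldha and Ldhb are paralogues that went opposite ways between 2i ESC and d2 EpiLC, and Pfkl and Pgk1 had the highest ratios of dCD over R1 WT. They were chosen after these values were seen. Each window runs from 250 bases before to 50 bases after an annotated start (RefSeq, GRCm38.p6), 5′ to 3′ on the strand of the gene. Ldha was read from chr7:46845554-46845853 (plus strand), Ldhb from chr6:142507908-142508207 (minus), Pfkl from chr10:78009758-78010057 (minus) and Pgk1 from chrX:106186850-106187149 (plus). Capitals mark the letters ACGTG on either strand, a form of the core of the hypoxia response element. The other form, GCGTG, was neither searched for nor marked, and unmarked stretches may hold it.
Ldha: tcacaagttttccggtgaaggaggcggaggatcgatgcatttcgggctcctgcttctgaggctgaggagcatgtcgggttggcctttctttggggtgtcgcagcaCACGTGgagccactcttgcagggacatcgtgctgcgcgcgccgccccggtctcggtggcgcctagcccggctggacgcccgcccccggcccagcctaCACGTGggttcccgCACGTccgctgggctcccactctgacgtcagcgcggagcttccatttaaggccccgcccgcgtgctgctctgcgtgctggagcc
Ldhb: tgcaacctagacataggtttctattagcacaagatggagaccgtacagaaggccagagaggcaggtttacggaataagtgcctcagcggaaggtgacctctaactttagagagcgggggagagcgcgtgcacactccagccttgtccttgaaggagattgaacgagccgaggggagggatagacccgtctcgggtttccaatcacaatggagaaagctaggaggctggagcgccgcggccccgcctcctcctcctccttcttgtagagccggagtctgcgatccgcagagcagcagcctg
Pfkl: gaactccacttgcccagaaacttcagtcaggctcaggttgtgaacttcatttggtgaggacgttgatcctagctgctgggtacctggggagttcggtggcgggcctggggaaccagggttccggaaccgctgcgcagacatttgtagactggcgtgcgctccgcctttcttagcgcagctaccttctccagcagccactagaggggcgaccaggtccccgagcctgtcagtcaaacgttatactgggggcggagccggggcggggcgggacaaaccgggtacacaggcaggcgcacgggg
Pgk1: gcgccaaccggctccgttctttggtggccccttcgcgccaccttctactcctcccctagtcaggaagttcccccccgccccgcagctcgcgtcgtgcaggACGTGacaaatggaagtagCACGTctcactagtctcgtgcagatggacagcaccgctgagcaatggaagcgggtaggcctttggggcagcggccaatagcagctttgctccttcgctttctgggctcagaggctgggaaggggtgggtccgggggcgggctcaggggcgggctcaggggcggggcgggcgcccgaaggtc
The printed window of Ldha held 5 matches, and its other annotated window held 0. Of the 5, 4 came from 2 copies of the palindrome CACGTG, in which ACGTG reads on both strands. CACGTG is the E-box bound by Myc. Pgk1 held 2 matches of ACGTG, and the windows of Ldhb and Pfkl held 0 of ACGTG. Among all 15 windows of the 10 members, 8 held ACGTG, belonging to 7 genes (Aldoa, Hk1, Hk2, Ldha, Pgam1, Pgk1 and Pkm), against 6447 of 32851 windows of all genes (19.6%). The 8 include overlapping windows of Aldoa that share the same match. CACGTG was in 1 of the 15, the printed window of Ldha, and in 7.15% of all windows. A match is only a match of letters.

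Together the 10 mRNAs made up 0.526% of the UMIs in 2i ESC, 0.278% at d1, 0.674% at d2 and 0.393% at d3 of EpiLC induction, 0.394% in EpiSC and 0.448% in S+L ESC. Among these libraries the share was lowest at d1 and highest at d2 of EpiLC induction, with 2775 CPM (2744 to 2807) and 6736 CPM (6688 to 6785). With every cell thinned to 15374 UMIs, which left out 116 of 2782 cells, the median cell gave 0.514% of its UMIs to the 10 genes in 2i ESC, 0.273% in d1 EpiLC and 0.657% in d2 EpiLC, so that the 5th percentile of d2 EpiLC cells (0.456%) lay above the 95th percentile of d1 EpiLC cells (0.423%). Without thinning the medians of these libraries were 0.519%, 0.276% and 0.662%.

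The first step, phosphorylation of glucose, belongs to the hexokinases. Hk1 (ENSMUSG00000037012, chromosome 10), the housekeeping form, was at 32.3 CPM in 2i ESC (28.7 to 36.3), 12.9 at d1, 6.36 at d2 and 7.17 at d3 of EpiLC culture, 6.66 in EpiSC and 18.1 in S+L ESC. Its level in d2 EpiLC was 5.08-fold below that in 2i ESC (3.90 to 6.68), and d2 EpiLC, d3 EpiLC and EpiSC lay within each other's intervals. Hk2 (ENSMUSG00000000628, chromosome 6), the inducible form, was at 71.9 CPM in 2i ESC, 54.6 at d1, 28.7 at d2 and 39.6 at d3 of EpiLC induction, 49.8 in EpiSC and 125 in S+L ESC. Among these libraries Hk2 had its low point at d2 EpiLC and its high point in serum, 1.74-fold above 2i ESC (1.58 to 1.92). Hk1 took 31.0% of the hexokinase pair's UMIs in 2i ESC (Clopper-Pearson 95% interval 28.0 to 34.1), 12.7% in S+L ESC and 11.8% in EpiSC.

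For phosphofructokinase, the committed step, the balance of Pfkl and Pfkp differed between stages. Pfkm, a further subunit outside the 10 members, is not in the shares given here. Its level was 10.7 CPM in 2i ESC, 15.5 at d1, 19.5 at d2 and 22.2 at d3 of EpiLC culture, 11.8 in EpiSC and 5.84 in S+L ESC. Pfkm was thus above Pfkp at d2, at d3 and in EpiSC. Pfkl (ENSMUSG00000020277, chromosome 10), the liver-type subunit, was at 66.1 CPM in 2i ESC, 34.7 at d1, 141.4 (134.5 to 148.5) at d2 and 90.2 at d3 of EpiLC formation, 70.5 in EpiSC and 80.5 in S+L ESC. Pfkp (ENSMUSG00000021196, chromosome 13), the platelet-type subunit, was at 71.8 CPM in 2i ESC, 27.6 at d1, 14.1 at d2 and 11.5 at d3 of EpiLC culture, 7.52 in EpiSC and 71.7 in S+L ESC. Pfkl and Pfkp were near equal in both kinds of ESC, still close at d1 and far apart from d2 on. Pfkp held 52.1% of the pair's UMIs in 2i ESC (49.2 to 54.9), 47.1% in S+L ESC and 44.3% at d1 of EpiLC induction. Its share was 9.05% (7.75 to 10.5) at d2, 11.3% at d3 and 9.64% in EpiSC. In d2 EpiLC, Pfkl was 2.14-fold above 2i ESC (1.94 to 2.36) and Pfkp 5.10-fold below it (4.28 to 6.12).

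The enzymes of the middle and end of the pathway were the abundant ones. Aldoa (ENSMUSG00000030695, chromosome 7), which splits fructose bisphosphate, was at 1284 CPM in 2i ESC, 505.8 at d1, 1546 at d2 and 1155 at d3 of EpiLC induction, 690.9 in EpiSC and 1320 in S+L ESC. Pgam1 (ENSMUSG00000011752, chromosome 19), which moves the phosphate of phosphoglycerate, was at 736.9, 570.3, 880.8, 498.1, 601.7 and 714.9 CPM in the same order of libraries. Pkm (ENSMUSG00000032294, chromosome 9), pyruvate kinase, was at 1061, 668.5, 1461, 859, 914 and 954.7 CPM. Each of these genes was higher in d2 EpiLC than in every other E14Tg2a library, while the listed d4 PGCLC, part of a library, held more Aldoa (1660 CPM). Pgk1 (ENSMUSG00000062070, chromosome X), which makes ATP from bisphosphoglycerate, was counted at only 17.01 CPM in 2i ESC, 6.00 at d1, 23.1 at d2 and 38.1 at d3 of EpiLC formation, 12.7 in EpiSC and 24.6 in S+L ESC, against 208.1 and 676.3 CPM in the R1 table. Reads that fit more than 1 place can be lost or split in counting, and GENCODE vM21 names 3 related copies of Pgk1, 2 of Aldoa, 2 of Pgam1 and 2 of Ldha, so their levels are uncertain. The row of 1 related copy, Pgk1-rs7, chosen after the low values of Pgk1 were seen, held at most 1.26 CPM in any E14Tg2a library.

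The last step is that of lactate dehydrogenase. Ldha (ENSMUSG00000063229, chromosome 7), the muscle-type subunit that favours lactate, was at 1216 CPM in 2i ESC, 597.8 at d1, 2450 (2421 to 2480) at d2 and 1093 at d3 of EpiLC culture, 1505 in EpiSC and 958.8 in S+L ESC. Ldhb (ENSMUSG00000030246, chromosome 6), the heart-type subunit that favours pyruvate, was at 706.2 CPM in 2i ESC (688.7 to 724), 297 at d1, 184.7 at d2 and 137 at d3 of EpiLC induction, 85.97 in EpiSC (80.95 to 91.21) and 215.8 in S+L ESC. Ldhb was thus lower at each later stage from 2i ESC to EpiSC, with no overlap of neighbouring intervals, while Ldha was lowest at d1 and highest at d2. Ldhb made up 36.7% of the pair's UMIs in 2i ESC (36.0 to 37.5), 33.2% at d1, 7.01% (6.72 to 7.31) at d2 and 11.1% at d3 of EpiLC formation, 5.40% in EpiSC and 18.4% in S+L ESC.

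**Figure D1:**
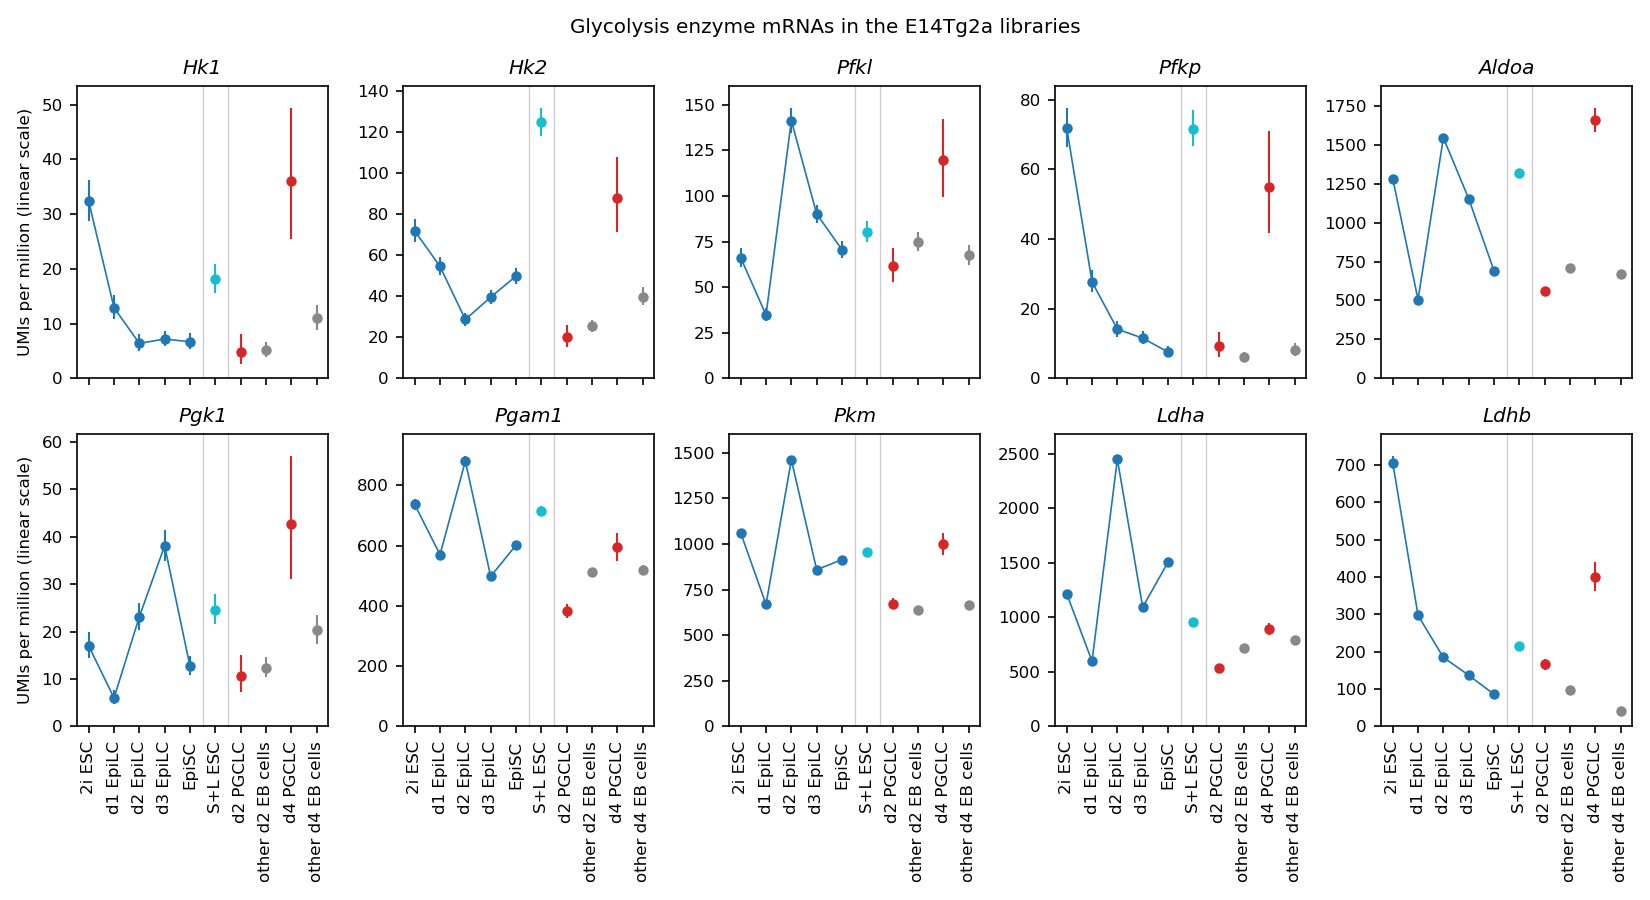
Level in CPM of each of the 10 genes (y axis, linear, from 0, its own scale for each gene) in the E14Tg2a groups (x axis), with exact 95% Poisson intervals as bars; the line joins 2i ESC to EpiSC, and PGCLC and other EB cells are parts of the same library. Pfkl, Aldoa, Pgam1, Pkm and Ldha peak at d2 EpiLC among these stages, while Pfkp and Ldhb stand at 71.8 and 706.2 CPM in 2i ESC and at 7.52 and 85.97 CPM in EpiSC.

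The comparison of d2 EpiLC with 2i ESC addressed the entry into the germline-competent state. The summed level of the 10 genes was 1.28-fold higher in d2 EpiLC (1.265 to 1.295). By the fold rule 2 of the 10 were higher, Pfkl and Ldha, against 28.4% of the 8412 genes tested, and 4 were lower, Pfkp, Hk1, Ldhb and Hk2, against 11.4%. The median log2 ratio of the 10 was 0.26, and that of all genes tested 0.24, but the members went both ways, which a median does not show. No member changed direction under the other scalings of the totals. The step passed through d1 EpiLC, where 8 of the 10 were lower than in 2i ESC (background 13.9%) and 0 higher (26.1%), with a median log2 ratio of -1.14 against 0.18 for all genes. From d1 to d2 EpiLC, 6 were higher (19.4%), Ldha by 4.10-fold (3.99 to 4.21) and Pfkl by 4.07-fold (3.64 to 4.56), and 4 were lower (13.2%), namely Hk1, Hk2, Pfkp and Ldhb. Pgam1, at 1.54-fold, was no longer past the fold rule when scaled by the median ratio of all genes (1.47).

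Around the members, 4 of 10 other glycolysis enzymes with enough counts were higher, compared with 2i ESC, and 0 lower, led by Eno3 (1.84-fold, 1.38 to 2.48), Pfkm (1.82-fold, 1.42 to 2.34) and Bpgm (1.59-fold). Eno3, Pfkm and Bpgm were scarce, at 14.5, 19.5 and 12.2 CPM in d2 EpiLC. Bpgm and the fourth, Tpi1 (1.56-fold, 571 against 366.2 CPM), were not past the rule under either other scaling. Gapdh, Gpi1 and Eno1, all abundant, were at 3956 against 4238, 281.5 against 367.9 and 792.8 against 743.8 CPM. Slc16a3, the lactate exporter MCT4, was 5.02-fold higher (4.43 to 5.70), whereas Slc2a3, the glucose transporter GLUT3, was 3.44-fold lower, and Mpc1, a subunit of the carrier that takes pyruvate into mitochondria, 3.82-fold lower. Among 6 Myc and Lin28 genes 5 were higher and 0 lower, led by Lin28b (11.6-fold, 5.93 to 25.9) and Myc (6.91-fold, 4.04 to 12.7), both at or below 12 CPM. Hypoxia response genes were higher in 4 of 15 and lower in 1, and citric acid cycle enzymes higher in 1 of 16 and lower in 1. Of all genes 28.4% were higher and 11.4% lower, so the hypoxia genes stood near the background.

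EpiSC, which have passed beyond germline competence, held less of most members than d2 EpiLC. Their summed level was 1.71-fold lower, with a ratio of EpiSC over d2 EpiLC of 0.586 (0.579 to 0.592). By the fold rule 7 of 10 were lower against 11.3% of 9242 genes, namely Aldoa, Ldhb, Pfkl, Pfkp, Pgk1, Ldha and Pkm, while Hk2 alone was higher (20.7%). The median log2 ratio was -0.76 for the 10 and 0.10 for all genes. Aldoa was 2.24-fold lower (2.18 to 2.30), Ldhb 2.15-fold (2.00 to 2.31) and Pfkl 2.00-fold (1.85 to 2.18), whereas Hk2 was 1.74-fold higher (1.52 to 1.99). Hk1, at 6.66 against 6.36 CPM, changed sides with the scaling. Other glycolysis enzymes were lower in 6 of 10 and higher in 1, with Aldoc 2.18-fold, Eno1b 1.94-fold and Pfkm 1.65-fold lower. Slc16a3 was 3.11-fold lower and Slc2a1, the transporter GLUT1, 2.26-fold lower, and Pdk1, the kinase that shuts pyruvate dehydrogenase, 3.12-fold lower, while Mpc1 was 4.00-fold higher.

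Between the naive cultures the median of the list differed little, while Hk2, Ldhb and Hk1 passed the fold rule in different directions. Serum-grown ESC held 0.852 times the summed level of 2i ESC (0.841 to 0.863), with 1 of the 10 higher (Hk2; background 14.3%) and 2 lower (Ldhb by 3.27-fold and Hk1 by 1.78-fold; background 11.1%). The median log2 ratio was -0.02 for the 10 and -0.01 for all genes, and Pfkp and Pgam1, at ratios of 0.998 and 0.970, changed direction with the scaling. Hypoxia response genes went another way, with 11 of 15 higher and 0 lower: Egln3, a prolyl hydroxylase that marks HIF for removal, was 7.22-fold higher (5.25 to 10.2), Ddit4 4.22-fold and Egln1 3.47-fold. Of the 16 citric acid cycle enzymes 6 were lower, led by Fh1, Mdh2 and Sdhb, and 1 higher (Suclg2, 1.87-fold).

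**Figure D2:**
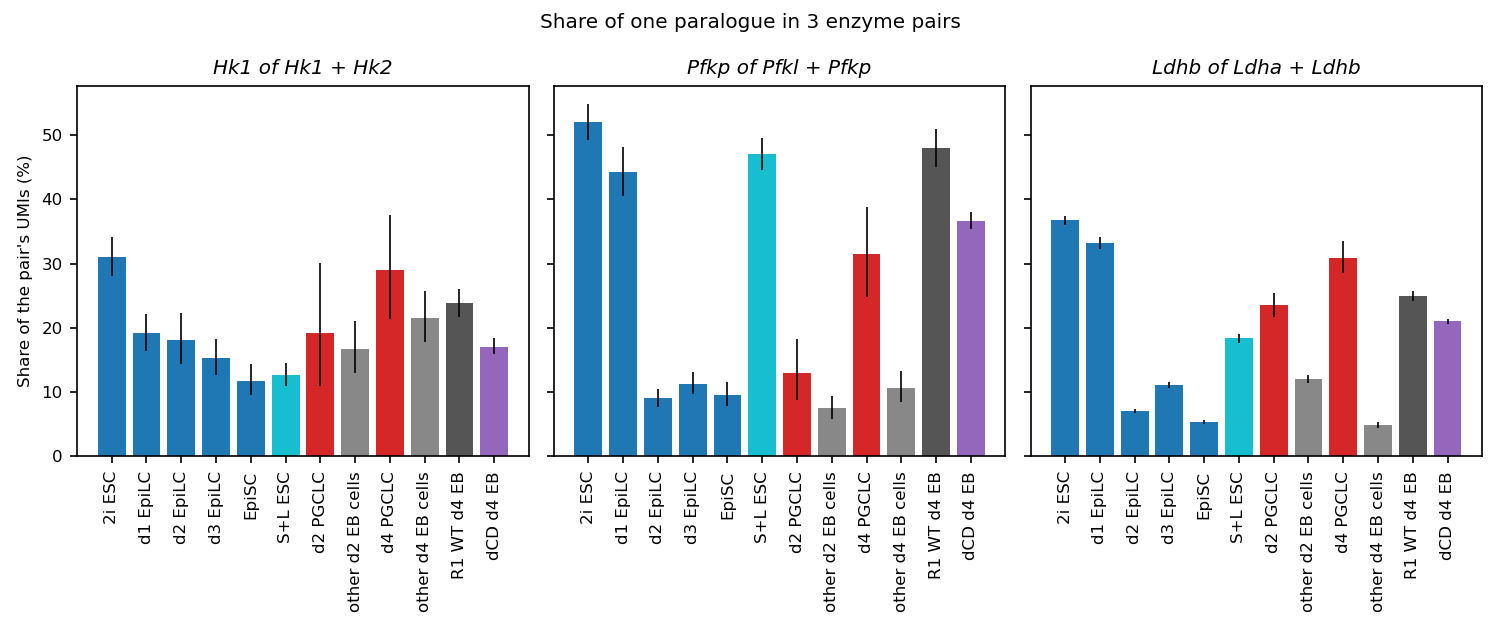
Share of UMIs (y axis, percent, from 0) taken by Hk1, Pfkp and Ldhb within its own enzyme pair in each group (x axis), with Clopper-Pearson 95% intervals. The share of Pfkp is 52.1% in 2i ESC and 9.05% in d2 EpiLC, and that of Ldhb 36.7% and 7.01%; in d4 PGCLC both stand higher, at 31.5% and 30.9%.

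EB taken at day 2 lay low in glycolysis mRNAs. The 10 summed to 2427 CPM in listed d2 PGCLC (2371 to 2484) and 2804 CPM in the other d2 EB cells (2774 to 2834), against 6736 CPM in d2 EpiLC, the population from which they came. In d2 PGCLC 7 of the 9 members with enough counts were lower than in d2 EpiLC (background 22.1%) and 0 higher (14.8%), with a median log2 ratio of -1.12 against -0.09 for all genes. Ldha was 4.55-fold lower (4.32 to 4.79), Aldoa 2.76-fold, Pgam1 2.30-fold, Pfkl 2.29-fold, Pgk1 2.19-fold, Pkm 2.17-fold and Pfkp 1.53-fold (1.01 to 2.39), the last of which was not past the rule under either other scaling. Hk2 and Ldhb stayed within the rule, and Ldhb, at 166 against 184.7 CPM, changed direction with the scaling. Hk1 had too few counts (14 UMIs in the PGCLC). In the other d2 EB cells Ldha was 3.40-fold below d2 EpiLC, Pkm 2.28-fold and Aldoa 2.19-fold. Slc16a3 was 6.59-fold lower in d2 PGCLC than in d2 EpiLC and Slc2a1 3.14-fold lower, while Slc2a3 was 2.97-fold higher.

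Listed PGCLC were then set against the other cells of their own library. The study had found these cells by clustering and had picked the clusters by enrichment of core PGC genes, so the values describe its clusters. At day 2 the summed ratio was 0.866 (0.844 to 0.888). Ldhb alone was higher by the fold rule among the 8 members with enough counts, at 166 CPM (151.6 to 181.5) against 98.6 (93.0 to 104.4), where 8.53% of all genes were higher, and 0 were lower (20.8%). Aldoa was at 560.5 against 706.3 CPM, Pgam1 at 382.9 against 513.9 and Ldha at 538.7 against 721.2. Pkm was at 673 against 640.1 CPM, Pfkl at 61.7 against 74.9, Hk2 at 20.1 against 25.4 and Pgk1 at 10.6 against 12.4. Hk1 and Pfkp, at 4.77 and 9.21 CPM in the PGCLC, were not tested. The medians were -0.30 on the log2 scale for the members and -0.13 for all genes. Beside the members, Slc2a1 was 4.60-fold lower in d2 PGCLC and Pdk1 3.29-fold higher (2.54 to 4.26).

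At day 4 the order was the other way. The 10 genes summed to 4885 CPM in the listed PGCLC (4753 to 5020) and to 2829 CPM in the other cells (2794 to 2865), a ratio of 1.73 (1.68 to 1.78), and 7 of the 10 were higher against 10.2% of 7502 genes, and 0 lower against 46.2%. Ldhb was at 399.2 CPM against 40.6, 9.84-fold higher (8.51 to 11.4), and Pfkp at 55.0 against 8.07, 6.81-fold higher (4.72 to 9.80). Hk1 was at 36.0 against 11 CPM (3.28-fold), Aldoa at 1660 against 667.6 (2.49-fold), Hk2 at 88.2 against 39.9 (2.21-fold), Pgk1 at 42.7 against 20.4 (2.096-fold) and Pfkl at 119.5 against 67.4 (1.77-fold). Pkm, at 998.5 against 665.7 CPM, stood just under the rule, and Pgam1 (594.5 against 518.9) and Ldha (891.3 against 789.9) differed by 1.15-fold and 1.13-fold. Hk1, Pfkp and Ldhb, the paralogues whose shares of their pairs were greatest in 2i ESC, thus had the greatest ratios here. The median log2 ratio of the members was 1.079, and that of all genes -0.48, a shift seen beside a share of ribosomal protein mRNAs of 43.2% in the PGCLC and 31.2% in the other cells, whose part in these values was not tested. The cells differed in kind as well: naive pluripotency markers summed to 1221 CPM in d4 PGCLC and 320.2 in the other cells, and extraembryonic mesoderm markers to 28.45 and 744.4 CPM. Among the naive markers Klf4 and Tbx3 went the other way, at 55.9 against 70.9 and 45.5 against 142.4 CPM. No member changed direction under either other scaling.

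**Figure D3:**
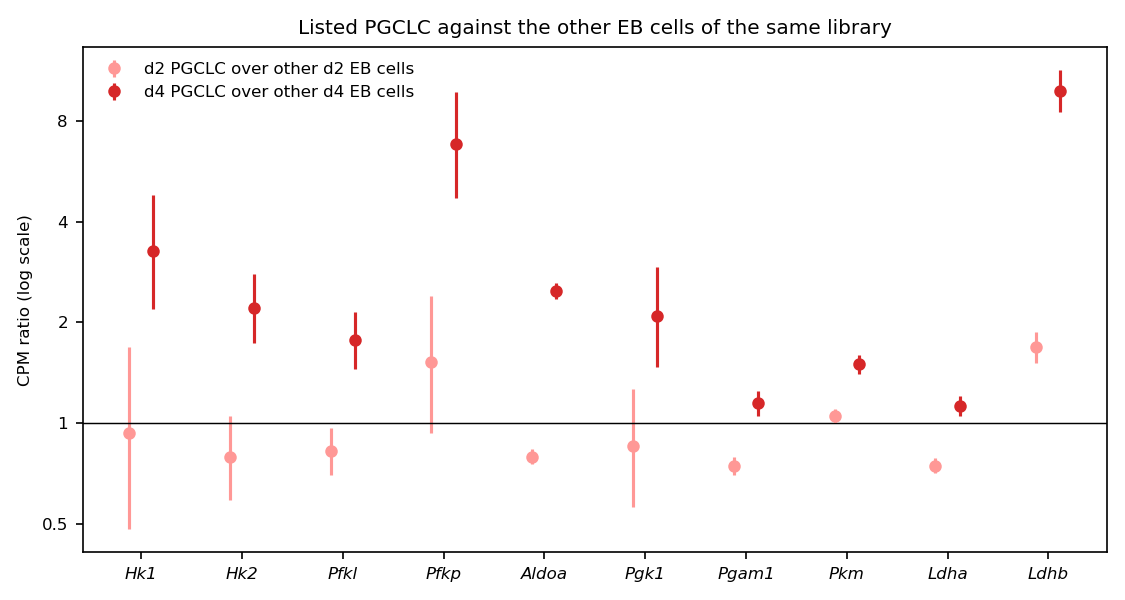
Ratio of CPM in listed PGCLC over the other EB cells of the same library (y axis, log scale) for each gene (x axis) at d2 and d4, with exact 95% intervals; the line marks a ratio of 1. At d2 the ratios lie between 0.745 and 1.68, and at d4 between 1.13 and 9.84.

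From d2 to d4 PGCLC 6 of the 7 members with enough counts were higher (background 7.45%) and 0 lower (19.9%): Hk2 4.38-fold, Aldoa 2.96-fold, Ldhb 2.40-fold, Pfkl 1.94-fold, Ldha 1.66-fold and Pgam1 1.55-fold. Pkm differed by 1.48-fold, and the remaining members were below 100 UMIs. Cell by cell, after thinning to 15374 UMIs, the median d4 PGCLC gave 0.426% of its UMIs to the 10 genes (38 of 44 cells kept) and the median of the other d4 EB cells 0.267% (293 of 324), while the corresponding d2 medians were 0.234% and 0.260%. The spread was wide, with a 5th to 95th percentile of 0.161% to 0.823% in d4 PGCLC. In unthinned cells the d4 medians were 0.494% and 0.258%. Ldhb had at least 1 UMI in 94.7% of thinned d4 PGCLC and 42.3% of the other cells (97.7% and 55.9% unthinned, at median depths of 24558 and 21487.5 UMIs), and free mRNA in droplets can give such UMIs too.

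Other d4 EB cells were not uniform. K-means clusters made without the metabolic genes set apart 37 extraembryonic ectoderm-like cells (led by Rhox6, Rhox9 and Krt7), whose 10 genes summed to 2357 CPM, and 29 endothelium-like cells (led by Cldn5, Ctla2a and Emcn), which summed to 3895 CPM with Ldha at 1288 CPM and Ldhb at 9.18 CPM. The largest cluster, 253 cells led by Ptn, Pitx1 and Col3a1, summed to 2713 CPM. The cluster of all 44 listed PGCLC also held 5 unlisted cells rich in globin mRNA (erythroid markers 83979 CPM, against 30.3 in the listed cells), and without these the d4 ratio was 1.73.

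Beyond the members, other glycolysis enzymes were mixed in d4 PGCLC, with Gpi1, glucose phosphate isomerase, 1.89-fold and Eno1, enolase, 1.70-fold higher and 2 of 7, Eno3 and Bpgm, lower at 6.64 and 9.48 CPM in the PGCLC. The call of Bpgm was lost under both other scalings and that of Eno3 when scaled by the median ratio of all genes. Slc2a3 was 5.78-fold higher (5.001 to 6.668) and Pdk1 2.79-fold higher. Hypoxia response genes were higher in 4 of 16 (10.2% of all genes), with Bnip3, a mitophagy receptor, 5.47-fold, Ddit4 4.77-fold and Ankrd37 4.09-fold higher, and lower in 3, with Hif1a at 21.8 against 78.5 CPM. Of 16 citric acid cycle enzymes 7 were lower and 0 higher, a share near the 46.2% of all genes that were lower here. The lowest ratio among them was that of Cs, citrate synthase, at 48.4 against 105.7 CPM. Among these only Cs was still past the rule when scaled by the median ratio of all genes. Myc was at 1.90 CPM against 51.8, on 2 UMIs in the PGCLC.

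The comparison of dCD with R1 WT EB asked what is lost or gained without MLL3 and MLL4 catalytic activity, and here every member was higher in dCD. The 10 genes took 0.528% of the UMIs in dCD and 0.217% in R1 WT, a ratio of 2.44 (2.41 to 2.46). By the fold rule 10 of 10 were higher against 14.8% of 11842 genes, and 0 lower against 11.8%, and the median log2 ratio was 1.31 for the members and -0.0034 for all genes. These 10 ratios come from the same pair of libraries. No member changed direction or lost its call under either other scaling.

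The members ranged widely. Pfkl was at 28.1 CPM in R1 WT (25.8 to 30.5) and 139.9 in dCD (135.1 to 144.9), 4.98-fold higher (4.56 to 5.46). Pgk1 was at 208.1 and 676.3 CPM, 3.25-fold higher (3.14 to 3.36), and Pfkp at 25.9 and 81.1 CPM, 3.13-fold (2.84 to 3.46). Their intervals overlap with that of Aldoa, at 312 and 967 CPM and 3.10-fold (3.02 to 3.19), so that only Pfkl stood clear above the rest. Ldha was at 443.7 and 1155 CPM (2.60-fold), Hk2 at 55.1 and 131.4 (2.39-fold), Pkm at 457.1 and 1006 (2.20-fold) and Ldhb at 147.7 and 307.1 (2.08-fold). Pgam1, at 472.3 and 787.7 CPM (1.67-fold, 1.63 to 1.71), and Hk1, at 17.3 and 27.1 CPM (1.57-fold, 1.38 to 1.79), had the lowest ratios, with overlapping intervals. The paralogue shares moved less than between stages, Pfkp holding 48.0% of its pair in R1 WT and 36.7% in dCD and Ldhb 24.97% and 21.0%.

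**Figure D4:**
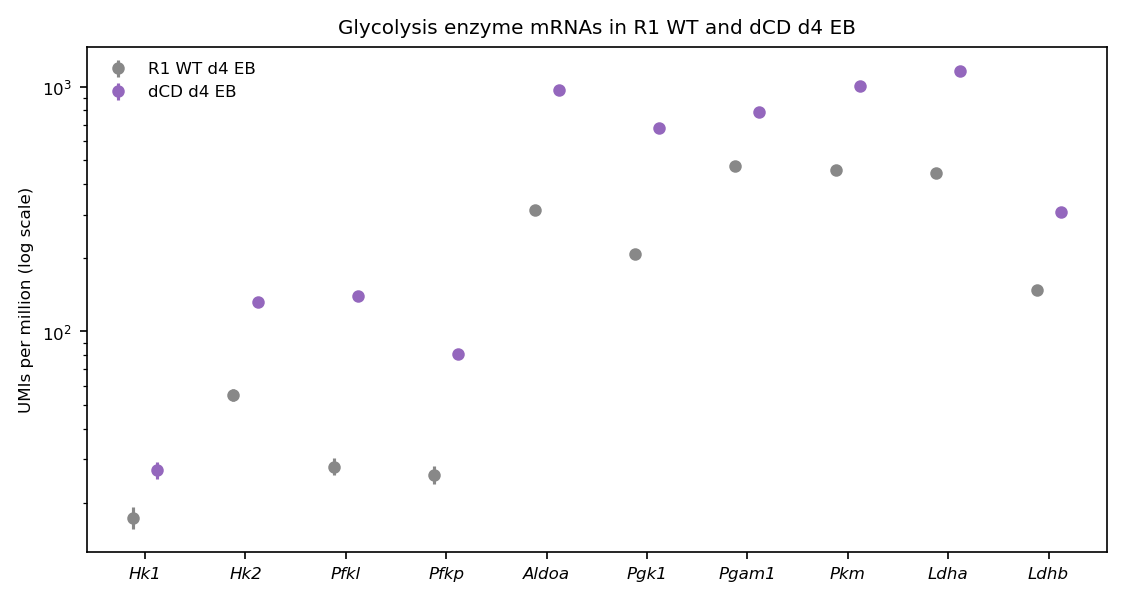
Level in CPM (y axis, log scale) of each gene (x axis) in R1 WT and dCD d4 EB, with exact 95% Poisson intervals, mostly smaller than the points. All 10 genes lie higher in dCD, from 1.57-fold for Hk1 to 4.98-fold for Pfkl.

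The difference lay in most cells. Thinned to 6831 UMIs, which left out 220 of 3115 cells, the median R1 WT cell gave 0.205% of its UMIs to the 10 genes and the median dCD cell 0.498%, against 0.205% and 0.503% without thinning. Of the dCD cells 96.0% lay above the R1 WT median and 76.3% above the R1 WT 95th percentile of 0.362%. The dCD cells were also more spread, with a 5th to 95th percentile of 0.220% to 0.922% against 0.102% to 0.362%. Quality differed between the libraries, the median mitochondrial share being 5.30% in R1 WT and 6.74% in dCD and the median depth 13187.5 and 11751 UMIs, and its part in the result was not tested. Among cells with at least 3000 genes the ratio was 2.40.

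**Figure D5:**
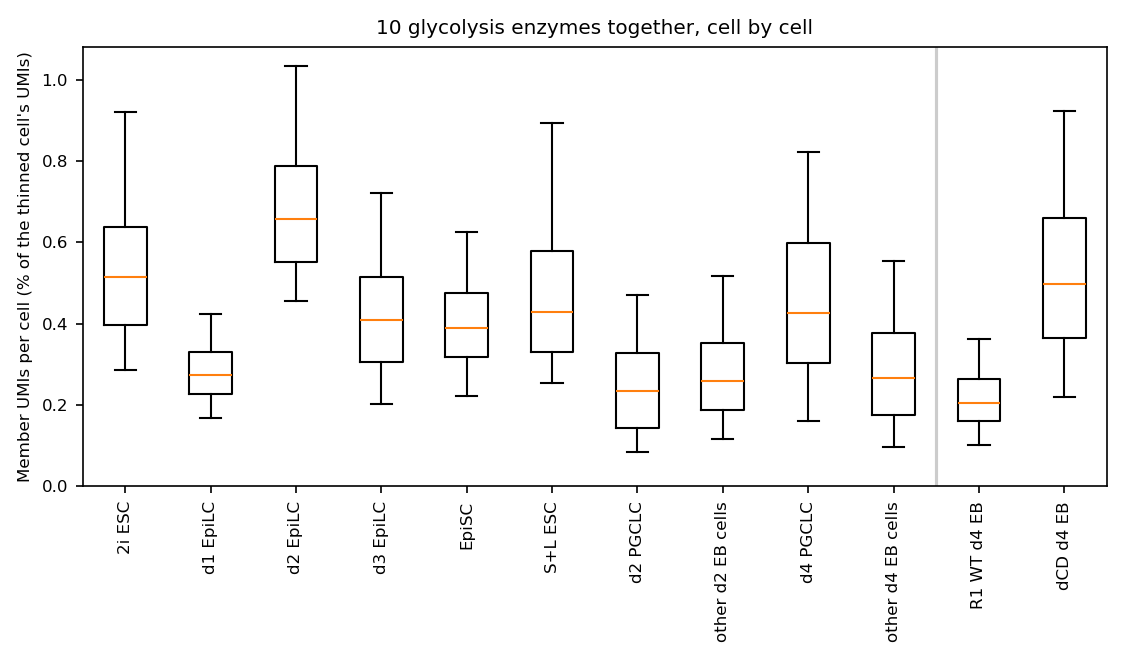
Share of a thinned cell's UMIs held by the 10 genes together (y axis, percent) in each group (x axis); boxes span the 25th to 75th percentile with the median, and whiskers the 5th to 95th. Cells were thinned to 15374 UMIs in E14Tg2a and 6831 in R1, the right of the grey line, where the medians are 0.205% in R1 WT and 0.498% in dCD.

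The make-up of the EB differed as well, since extraembryonic mesoderm markers summed to 1424 CPM in R1 WT and 402 in dCD, and naive pluripotency markers to 521.6 and 747.4, with 6 of 7 of the former lower and 5 of 6 of the latter higher. Of 9 joint k-means clusters, only 3 held at least 50 cells of each library, covering 362 of the 1416 R1 WT cells and 837 of the 1699 dCD cells. Within them the summed ratio of dCD over R1 WT was 2.04 in cluster 2 (1.978 to 2.097; led by Gm46332, Mylpf and Fam25c), 2.21 in cluster 3 (2.12 to 2.30; led by Ttr, Grm6 and Nkx2-5) and 1.87 in cluster 6 (1.82 to 1.93; led by Vgll3 and Ccl2), so the summed difference was present in each at a size somewhat below the whole. Pfkl was 4.25-fold, 3.58-fold and 4.65-fold higher in these clusters, Ldha 6.02-fold, 2.26-fold and 2.73-fold, and Aldoa 3.38-fold, 3.28-fold and 1.96-fold. By the fold rule 7 of 10 members were higher in cluster 2 (12% of all genes there), 7 of the 9 with enough counts in cluster 3 (10.3%) and 6 of 10 in cluster 6 (7.59%), and 0 were lower in each (5.78%, 4.99% and 7.34%). The others lay nearer to 1. In cluster 2 Pfkp, Pgam1 and Ldhb had ratios of 1.275, 1.27 and 1.01. In cluster 3 Hk2 and Ldhb had ratios of 1.345 and 1.18 and Hk1, with too few counts, 1.35, and in cluster 6 Pgam1, Hk2, Pfkp and Hk1 had ratios of 1.48, 1.21, 0.864 and 0.799.

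Cells with UMIs from 2 or more of Dnd1, Nanos3, Dppa3 and Prdm1, all PGC markers, numbered 155 in R1 WT (10.9%) and 120 in dCD (7.06%). Prdm14 and Tfap2c, the other PGC markers summed above, were not used to pick these cells. In R1 WT and dCD, Prdm14 was at 2.77 and 5.20 CPM and Tfap2c at 42.2 and 44.3. Of the markers used, Dnd1 was at 15.06 and 16.65 CPM, Nanos3 at 15.69 and 7.515, Dppa3 at 20.4 and 18.66 and Prdm1 at 11.85 and 11.32. The 10 genes in these marker cells summed to 2066 CPM in R1 WT (2011 to 2123) and 5464 in dCD (5370 to 5560), a ratio of 2.64 (2.56 to 2.73). The members' ratios ran from 1.57 for Hk1 to 6.74 for Ldha. These cells were not alike in the libraries: cluster 9, led by embryonic globin genes and also holding Dppa3 among its leading genes, had 111 of the R1 WT marker cells and 5 of the dCD ones, while cluster 2 had 23 and 66. In cluster 2, 5 of 6 naive pluripotency markers and 4 of 6 PGC markers were at least 2-fold above the other R1 cells. The part of these differences in the ratio was not tested. Against the other cells of their own library the R1 WT marker cells had a summed ratio of 0.947 (0.920 to 0.975), with Ldhb 2.17, Pfkp 2.11 and Hk1 1.89 times the level of the rest and Ldha 0.290 times. In dCD the summed ratio was 1.04 (1.02 to 1.06), with Ldhb 2.098, Hk1 1.84, Pfkp 1.215 and Ldha 0.808 times the level of the rest. Marker cells were deeper than the rest, with medians of 15537 against 12961 UMIs in R1 WT and 17114 against 11490 in dCD. Set beside the E14Tg2a d4 PGCLC, which were listed in another way and counted with another chemistry, the R1 WT ratios of 2.17, 2.11 and 1.89 for Ldhb, Pfkp and Hk1 stand against 9.84, 6.81 and 3.28, and that of 0.290 for Ldha against 1.13.

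Other glycolysis enzymes were higher in 8 of 11 and lower in 0, with Aldoc 5.40-fold (4.29 to 6.85), Tpi1 3.46-fold (3.34 to 3.59) and Gpi1 2.59-fold (2.48 to 2.70), a median log2 ratio of 0.73. Slc16a3 was at 17.2 CPM in R1 WT and 95.3 in dCD, 5.53-fold higher (4.94 to 6.20), and Slc2a3 was 2.103-fold higher. Pdk1 was 3.45-fold higher (3.08 to 3.87). In the routes beside glycolysis 1 of 8 pentose phosphate enzymes and 1 of 16 citric acid cycle enzymes were higher and 0 lower in either list, with median log2 ratios of 0.24 and 0.03. Of 19 hypoxia response genes 13 were higher and 1 lower, Bnip3 by 10.2-fold (8.74 to 11.9), Ankrd37 by 4.48-fold and Egln3 by 4.39-fold, whereas Hif1a itself was 1.68-fold lower. Of all genes 14.8% were higher and 11.8% lower. Myc was at 30.7 CPM in R1 WT and 12.7 in dCD.

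Across the 8 E14Tg2a libraries some pairs of members shared a course and others did not. The log2 levels of Pkm and Ldha correlated at Pearson r = 0.93 and those of Pkm and Pgam1 at 0.89, and Hk1 and Pfkp correlated at 0.90 and Pfkp and Ldhb at 0.82, whereas Ldha and Ldhb stood at 0.03 and Pfkl and Hk1 at -0.35. Pgam1 also stood at 0.53 with Pfkp and 0.52 with Ldhb, and Pgk1 at 0.13 with Pgam1, so the pairs did not form clean sets. The points are 8 libraries that share the scaling to their totals, and these values are descriptive. The 10 genes whose course was most like the mean of the members, among 1894 genes with at least 100 CPM in a library, were Rack1 (r = 0.93), Syngr1 (0.92), Cox5a (0.91), Sod2 (0.91), Gpi1 (0.89), Sap30 (0.89), Rpl8 (0.89), Impa2 (0.89), Tubb2b (0.88) and Eif2s2 (0.88). Gpi1 is the glycolysis enzyme between the hexokinases and phosphofructokinase.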

How the data were processed

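mRNA was counted by droplet-based single-cell RNA-seq in 8 libraries of E14Tg2a and 2 of R1. Per the labels and methods, the deposited E14Tg2a counts (10x 3′ v2) were made by the authors with Cell Ranger on GRCm38 and aggregated with its default normalization to equal mapped reads. The deposited R1 counts (10x 3′ v3) hold cells with at least 2000 expressed genes, and their aligner is not given in the sources used here. All 27998 Ensembl rows entered the E14Tg2a totals, 27645 of them with a symbol. E14Tg2a cells were given to libraries by the barcode suffix as the study lists it, and PGCLC by the study's list (135 cells, all found).

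UMI counts were summed over the cells of a group. With 1 library a condition there was no test. Levels carry exact Poisson, ratios exact conditional and shares Clopper-Pearson 95% intervals (scipy 1.17.1), for counting error only, and no doublets were removed in the main values. Doublets were called with Scrublet in scanpy 1.11.5 (0.44% to 7.6% of cells in the E14Tg2a libraries, 0.65% and 0.71% in R1). K-means (scikit-learn 1.9.0; 2000 variable genes without the metabolic lists, 20 principal components, 50 starts; 3 clusters in d2 EB, 4 in d4 EB and 9 in R1) gave the clusters, which were called by a cell type only from fixed marker lists. Log2 ratios used CPM plus 1. In simulated counts for d2 EpiLC over 2i ESC, 193 of 200 known folds lay inside their interval (27998 genes). These counts came from the Poisson model that the interval assumes, without spread between cells or libraries, so they check the calculation only. Named were all members, of each other list at most the 3 genes with the largest difference in a comparison, and the 10 genes most like the members. The members, lists and rules were chosen with earlier results of these data known.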

Additional observations from a re-analysis of the deposited data

Results flagged for a closer look

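Beside the other cells of their library, 4 members stood lower in listed d2 PGCLC and higher in listed d4 PGCLC, with counting intervals on opposite sides of 1. The ratio was 0.824 at d2 and 1.77 at d4 for Pfkl, 0.794 and 2.49 for Aldoa, 0.745 and 1.15 for Pgam1, and 0.747 and 1.13 for Ldha. These intervals are for scaling by the totals. Under the other scalings the d2 ratio was nearer to 1 for each, at 0.894 and 0.905 for Pfkl. The median ratio of all genes at d2 was 0.911, and none of the 4 was called lower there by the fold rule. Each time point was 1 library, so the difference between them was not tested.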

How the results depend on the processing

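Each condition was 1 library, so no replicate could be left out, and no test was made. No paired analysis was possible because each group has 1 library. The sum of the 10 genes kept its direction in all 51 alternatives. Without mitochondrial and ribosomal protein genes in the totals the summed ratio was 1.18 for d2 EpiLC over 2i ESC, 0.898 for S+L over 2i ESC, 0.404 for d2 PGCLC over d2 EpiLC, 0.938 for d2 PGCLC over other d2 EB cells, 2.13 for d4 PGCLC over other d4 EB cells and 2.57 for dCD over R1 WT. Scaled by the median ratio of all genes it was 1.077 for d2 EpiLC over 2i ESC, 0.545 for EpiSC over d2 EpiLC, 0.385 for d2 PGCLC over d2 EpiLC, 0.9504 for d2 PGCLC and 2.41 for d4 PGCLC over other EB cells. Without the most abundant member it was 1.06, 0.569, 0.795, 0.441, 0.811, 1.49 and 2.39 for d2 EpiLC over 2i ESC, EpiSC over d2 EpiLC, S+L over 2i ESC, d2 PGCLC over d2 EpiLC, d2 PGCLC and d4 PGCLC over other EB cells, and dCD over R1 WT. In thinned cells it was 1.26 for d2 EpiLC over 2i ESC, 0.883 for S+L over 2i ESC and 1.615 for d4 PGCLC over other cells, and as a mean over cells 1.24, 0.890 and, for dCD over R1 WT, 2.53. With a k-means cluster in place of the listed cells it was 0.904 at d2 and 1.67 at d4, and 1.65 at d4 without the extraembryonic ectoderm-like cells. For dCD over R1 WT it was 2.035 as a mean over clusters with cells of both libraries and 2.40 in cells with at least 3000 genes. Leaving out the unlisted cells of the PGCLC clusters, chosen after seeing the data, gave 0.867 at d2 and 1.73 at d4. For d4 PGCLC over other d4 EB cells the count of 7 higher members was 10 scaled by the median ratio, 8 without mitochondrial and ribosomal genes, 5 in thinned cells, and 6 and 8 under the stricter and looser fold rules. At a looser fold rule 4 were higher in d2 EpiLC and 2 in S+L over 2i ESC, and 4 lower in d2 PGCLC over other cells. At the stricter rule of 2-fold 0 were higher and 3 lower in EpiSC over d2 EpiLC, 0 higher and 1 lower in S+L over 2i ESC, and 0 higher in d2 PGCLC over other cells. Without mitochondrial and ribosomal genes 2 were higher in S+L over 2i ESC. With genes down to 10 UMIs the median log2 ratio of all genes changed sign, to 0.10 for S+L over 2i ESC and 0.030 for dCD over R1 WT. With a pseudocount of 10 CPM the members' median was -0.61 for EpiSC over d2 EpiLC and 1.23 for dCD over R1 WT.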
